A study of Mus musculus with 9 samples.

Results

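The 10 genes of serine, folate and methionine metabolism were followed in the liver of diabetic STAM mice, with and without insulin treatment, and of Normal mice. They were chosen by gene symbol, as Mat1a, Mat2a, Gnmt, Bhmt, Cbs, Phgdh, Psat1, Shmt1, Shmt2 and Mthfd2, with earlier results of these data known. All 10 were found on the array, out of 20972 gene symbols named there, by 16 probes, of which 14 were tested. The livers came from 9 males, 3 in each of 3 groups, at 20 weeks of age, and the total RNA of each was read on its own Cy3-labelled Agilent array. STAM mice received a low dose of streptozotocin, a toxin of the insulin-secreting beta cells, as newborns and were then fed a high-fat diet, and they develop diabetes, steatohepatitis and liver tumours. STAM-NON mice had no treatment, STAM-INS mice were given the long-acting insulin analogue glargine, and Normal mice were lean controls, so that a comparison with Normal holds toxin, diet and disease together.

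The pathway moves single carbon units from serine to folate and on to methionine. Phgdh and Psat1 make serine from a glycolytic intermediate. Shmt1 in the cytosol and Shmt2 in mitochondria pass a carbon from serine to tetrahydrofolate, and Mthfd2 oxidises the folate-bound carbon in mitochondria. Mat1a, the form of adult liver, and Mat2a, the form of most other and of growing cells, turn methionine into S-adenosylmethionine, the cell's methyl donor. Gnmt uses up that donor by methylating glycine, Bhmt remakes methionine from homocysteine with betaine, and Cbs takes homocysteine toward cysteine. Liver is the main site of the methionine cycle, and Mthfd2 and the serine-making enzymes are known for being low in adult liver and higher in many tumours.

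Values are the log2 signal of a probe minus the 75th percentile of its array, called the centred log2 signal, so 0 is the level of the spot at that percentile, and one probe's level is not set against another's. Each gene is given by its leading probe, the tested probe with the highest mean. The RNA was of liver by its markers, since all 8 hepatocyte markers were well above background on all 9 arrays. All STAM arrays were on 1 slide and all Normal arrays on another, so slide and group cannot be told apart in either comparison with Normal, while STAM-INS against STAM-NON lay within 1 slide. Slide row also followed group in part. All STAM-NON arrays and STAM-INS 1 were on row 1, and STAM-INS 2, STAM-INS 3 and all Normal arrays on row 2. Row and group are thus partly mixed between the STAM groups too. Spots well above background made up 46.2 to 65.0% of an array, and STAM-NON 1, STAM-NON 3 and STAM-INS 1 had the most. Arrays of a group correlated at 0.979 to 0.991 over tested probes. In bulk liver, fewer cells of a type and less RNA per cell cannot be told apart.

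The stretches before the transcription starts of the 4 genes that passed the test in a comparison with Normal are shown because their signals are the ones the results turn on. Each is the 250 bases upstream of a start in RefSeq on GRCm38.p6, read 5′ to 3′ on the gene's strand, with CCAAT or its reverse complement ATTGG in capitals. They lie at chr19:15925060-15925309 on the minus strand for Psat1 (the first of its 2 starts), chr6:83317605-83317854 on the minus strand for Mthfd2, chr17:46729166-46729415 on the minus strand for Gnmt and chr11:60811266-60811515 on the minus strand for Shmt1.
Psat1: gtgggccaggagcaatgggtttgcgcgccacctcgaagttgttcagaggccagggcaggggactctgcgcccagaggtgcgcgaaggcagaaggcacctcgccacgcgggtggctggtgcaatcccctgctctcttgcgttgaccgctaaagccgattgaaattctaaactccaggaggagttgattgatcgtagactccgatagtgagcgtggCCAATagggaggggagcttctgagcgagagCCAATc
Mthfd2: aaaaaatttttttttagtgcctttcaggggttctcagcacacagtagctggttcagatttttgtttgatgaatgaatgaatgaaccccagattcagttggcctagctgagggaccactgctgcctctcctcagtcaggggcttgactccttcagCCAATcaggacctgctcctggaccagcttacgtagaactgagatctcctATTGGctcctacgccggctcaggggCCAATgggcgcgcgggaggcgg
Gnmt: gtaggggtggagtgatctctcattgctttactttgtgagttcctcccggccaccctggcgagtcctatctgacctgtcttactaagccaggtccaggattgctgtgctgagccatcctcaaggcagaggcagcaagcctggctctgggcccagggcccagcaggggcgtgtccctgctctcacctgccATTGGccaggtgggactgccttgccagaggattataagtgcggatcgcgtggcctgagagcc
Shmt1: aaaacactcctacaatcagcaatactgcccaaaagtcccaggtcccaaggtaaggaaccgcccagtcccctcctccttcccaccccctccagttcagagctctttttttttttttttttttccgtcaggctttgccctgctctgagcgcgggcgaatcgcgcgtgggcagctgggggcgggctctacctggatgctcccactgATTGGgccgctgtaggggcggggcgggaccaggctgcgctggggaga
Promoters were held for 9 of the 10 genes, and 3 motifs were searched in them on both strands. The first was TGATGNAA, a core of the element bound by ATF4, a stress-responsive activator of serine and folate genes, which was in none of the 9 and in 3.45% of 32851 mouse promoters. The second, the E-box CACGTG, was in 1 of the 9, Cbs, and in 6.02% of all. The third, CCAAT, was added after these results and after the letters of the promoters had been read. It was in 8 of the 9 genes, with any start of a gene counted, and in 33.8% of all promoters, counted singly. The 9 genes have 10 promoters, and that of the second Psat1 start has no match. Because of when it was added, this motif is a description of sequences already seen and supports nothing. The search says nothing of sites outside the 250 bases.

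Psat1 and Mthfd2 were higher, and Gnmt and Shmt1 lower, in STAM-NON than in Normal liver under the main processing. Under alternative processing the Psat1 call passed in 22 of 24 cases and that of Mthfd2 in 15 of 24. The Gnmt call passed in 11 of 25 and the Shmt1 call in 5 of 25. Of the 10 genes, 4 passed limma at an adjusted p under 0.05, with 2 higher and 2 lower, where 16.1% of 26277 tested probes passed, 6.3% higher and 9.76% lower. The median difference of the 10 was -0.13 on the log2 scale, and that of all tested probes was also -0.13. The groups did not overlap for 6 of the 10, where they did not for 41.2% of all tested probes. Psat1 and Mthfd2 entered the tests only through the STAM groups, in which they are high, so their 2 calls cannot be read as independent of that filter. In STAM-INS against Normal, 2 of the 10 passed, the same pair, both higher, where 13.9% of probes passed, 5.16% higher and 8.73% lower. The median difference of the 10 was -0.04, against -0.09 for all tested probes, and the groups did not overlap for 5 of the 10 and for 44% of all tested probes.

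**Figure D1:**
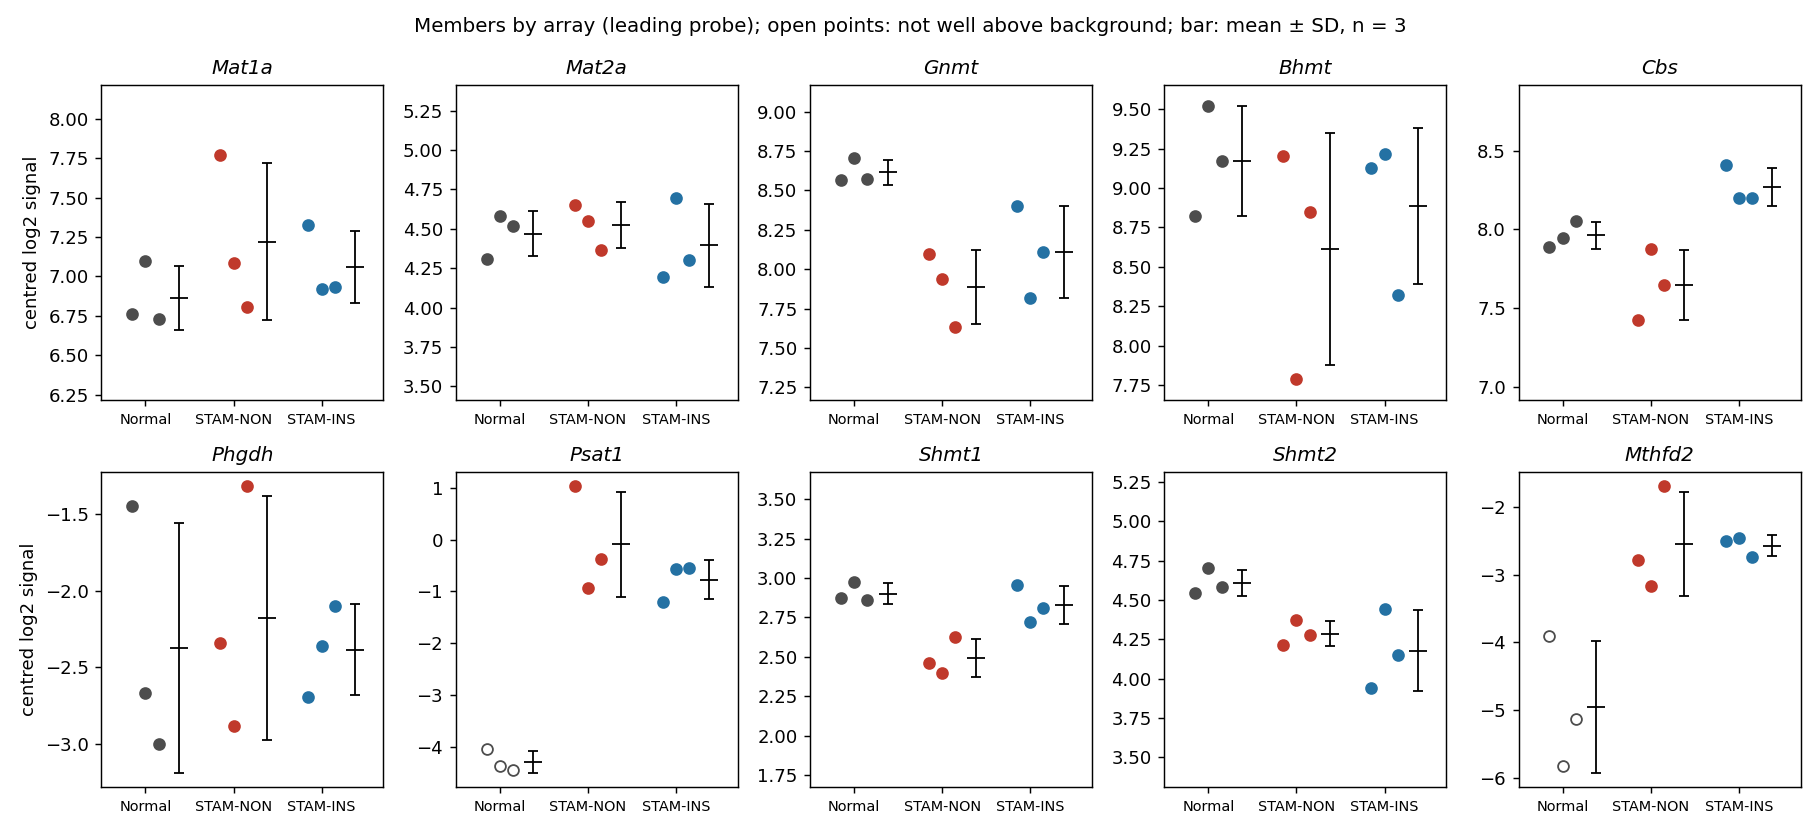
Centred log2 signal (y axis, with a range of its own in each panel) of the 10 genes on each of 9 arrays, by group (x axis). Points are arrays, open where the probe was not well above background, and bars give the mean ± SD (n = 3). Psat1 and Mthfd2 have open points on all 3 Normal arrays, and all 6 STAM arrays lie above them.

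Psat1, the aminotransferase of serine synthesis, had centred log2 signals of 1.03, -0.93 and -0.37 in STAM-NON, -1.21, -0.57 and -0.54 in STAM-INS, and -4.05, -4.36 and -4.45 in Normal mice. All 6 STAM mice were above all Normal mice, and the highest was STAM-NON 1. None of the Normal arrays had the probe well above background and all 6 STAM arrays did, so it passed the filter on dim probes only through the groups where it is high, and the fold is a bound. The STAM mean is set against a Normal mean in which each array counts with the probe's signal or with its lowest signal well above background, whichever is higher. Such a bound is one on group means and takes no account of the spread between mice. By group means, the rise of Psat1 was at least 14-fold in STAM-NON (measured difference 4.20 on the log2 scale, adjusted p = 0.00402 by limma). In STAM-INS it was at least 8.72-fold (3.51, adjusted p = 0.00387 by limma). The 95% interval of the measured difference was 3.18 to 5.22 in STAM-NON and 2.49 to 4.53 in STAM-INS. Both intervals start below the bounds, which are 3.81 and 3.12 on the log2 scale. The other probe of Psat1, not tested, was likewise not well above background in Normal mice. It gave a bound of 1.37-fold for STAM-NON and none for STAM-INS. Over the 24 alternatives with adjusted p-values, the difference of the leading probe ranged from 1.91 to 4.85 in STAM-NON and from 1.38 to 3.73 in STAM-INS. The bounds therefore hold for the main processing only. With slide row as a block, the STAM-NON difference was 4.85 and no longer passed (adjusted p = 0.112). That fit rests on STAM-INS, the one group on both rows.

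Mthfd2, the mitochondrial folate dehydrogenase, had values of -2.78, -3.17 and -1.69 in STAM-NON, -2.51, -2.46 and -2.74 in STAM-INS, and -3.91, -5.82 and -5.12 in Normal mice. All STAM mice were above all Normal mice, and the Normal arrays spread most (SD 0.97, n = 3). None of the Normal arrays and all 6 STAM arrays had the probe well above background, so it too was tested only through the groups where it is high. By group means, its rise was at least 2.56-fold in STAM-NON (measured difference 2.41, adjusted p = 0.0216 by limma). In STAM-INS it was at least 2.52-fold (2.38, adjusted p = 0.0214 by limma). The 95% interval of the measured difference was 1.25 to 3.56 in STAM-NON and 1.23 to 3.53 in STAM-INS. Here too the intervals start below the bounds, which are 1.35 and 1.33 on the log2 scale. Each of the calls passed in 15 of 24 alternatives with adjusted p-values. Both were lost without the filter on dim probes, through which alone the gene was tested, and with slide row as a block. Both calls were also lost without Normal 2 (adjusted p = 0.0623 for STAM-NON and 0.0602 for STAM-INS) and without Normal 3 (0.0695 and 0.0723). The STAM-NON call was also lost without STAM-NON 1 (0.0527) or STAM-NON 3 (0.0538), and the STAM-INS call without STAM-INS 1 (0.0554), 2 (0.08) or 3 (0.054). With normexp background correction, the differences shrank to 0.43 and 0.42, which is below the bounds. The bounds of Mthfd2 therefore also hold for the main processing only.

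Phgdh, the enzyme ahead of Psat1, gave no such difference. Its values were -2.34, -2.88 and -1.32 in STAM-NON, -2.69, -2.36 and -2.10 in STAM-INS, and -1.45, -2.67 and -3.0 in Normal mice, so that all groups overlapped. The difference from Normal was 0.19 for STAM-NON (95% interval -0.90 to 1.28) and -0.01 for STAM-INS (-1.10 to 1.08). A second, untested probe of Phgdh was not well above background in Normal mice and was so in 2 of 3 mice of each STAM group, with a bound of 2.03-fold for STAM-NON and 1.40-fold for STAM-INS. The probes thus differ, and intervals this wide leave room for a change of more than 2-fold. Psph, the last enzyme of serine synthesis, was 0.69 higher in STAM-NON and did not pass (adjusted p = 0.152 by limma).

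Gnmt, the glycine methyltransferase, had values of 8.10, 7.94 and 7.63 in STAM-NON, 8.40, 7.81 and 8.11 in STAM-INS, and 8.56, 8.71 and 8.57 in Normal mice. Every STAM mouse was below every Normal mouse. In STAM-NON it fell by 0.73 on the log2 scale (SD 0.24 and 0.08, n = 3 each, adjusted p = 0.0314 by limma), which is 1.65-fold. In STAM-INS the difference was -0.51 and did not pass (adjusted p = 0.0895), and that between the STAM groups was 0.22 (adjusted p = 0.767). The call depended on the scaling, since it was lost with quantile normalisation (-0.40, adjusted p = 0.2), with the percentile over probes detected on all arrays (-0.56, 0.0807) and with spike-in centring (-0.43, 0.26), where the difference kept its sign. It was also lost without any 1 Normal mouse (adjusted p = 0.0795 to 0.0917), without any 1 STAM-NON mouse (0.0501 to 0.0801) and without STAM-INS 3 (0.052).

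Shmt1, the cytosolic serine hydroxymethyltransferase, had values of 2.46, 2.40 and 2.62 in STAM-NON, 2.96, 2.72 and 2.81 in STAM-INS, and 2.87, 2.98 and 2.86 in Normal mice. STAM-NON lay below both other groups, which overlapped. It fell by 0.41 in STAM-NON (adjusted p = 0.0452 by limma), or 1.33-fold, the call nearest the threshold. A second probe differed by -0.39 and did not pass (adjusted p = 0.0859). The call was lost when any 1 of the 9 mice was left out (adjusted p = 0.0547 to 0.122), and under spike-in centring the difference was -0.11 (0.706). It passed in 5 of 25 alternatives. Shmt2, the mitochondrial form, had values of 4.21, 4.37 and 4.28 in STAM-NON, 3.94, 4.44 and 4.15 in STAM-INS, and 4.54, 4.70 and 4.58 in Normal mice, with all STAM mice below all Normal mice. Its differences of -0.32 and -0.43 did not pass (adjusted p = 0.141 and 0.0768). The log2 ratio of Shmt2 to Shmt1 within an array, in which scaling cancels, was set against its Normal mean. It stood at 0.09 ± 0.17 (SD, n = 3) in STAM-NON and -0.36 ± 0.37 in STAM-INS. The STAM-INS shift was about the size of the spread between its mice, while the Normal SD was 0.03. A difference of the group means of this ratio was not tested.

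The S-adenosylmethionine synthases gave no call. Mat1a was 7.77, 7.08 and 6.80 in STAM-NON, 7.32, 6.92 and 6.93 in STAM-INS, and 6.76, 7.10 and 6.73 in Normal mice. Mat2a ranged from 4.19 to 4.69 over all 9 mice, and all groups overlapped. A second Mat2a probe went the other way in STAM-NON (-0.14, against 0.05 for the leading probe), and neither passed. The largest of their differences was 0.36, for Mat1a in STAM-NON (95% interval -0.21 to 0.93). The log2 ratio of Mat2a to Mat1a stood at -0.31 ± 0.37 (SD, n = 3) relative to its Normal mean in STAM-NON and -0.27 ± 0.45 in STAM-INS. These shifts were within the spread between mice of each STAM group, and the Normal SD was 0.16. A difference of the group means of this ratio was not tested. Mat2b, the regulatory partner of Mat2a, fell by 0.61 in STAM-INS against Normal mice (adjusted p = 0.0155 by limma) and differed by -0.38 in STAM-NON, which did not pass (0.0582). Bhmt, measured by 3 probes that moved alike, was 9.20, 7.79 and 8.85 in STAM-NON, 9.12, 9.22 and 8.32 in STAM-INS, and 8.82, 9.52 and 9.17 in Normal mice. Its spread in STAM-NON (SD 0.74) was larger than its difference from Normal, -0.56 (adjusted p = 0.325).

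**Figure D2:**
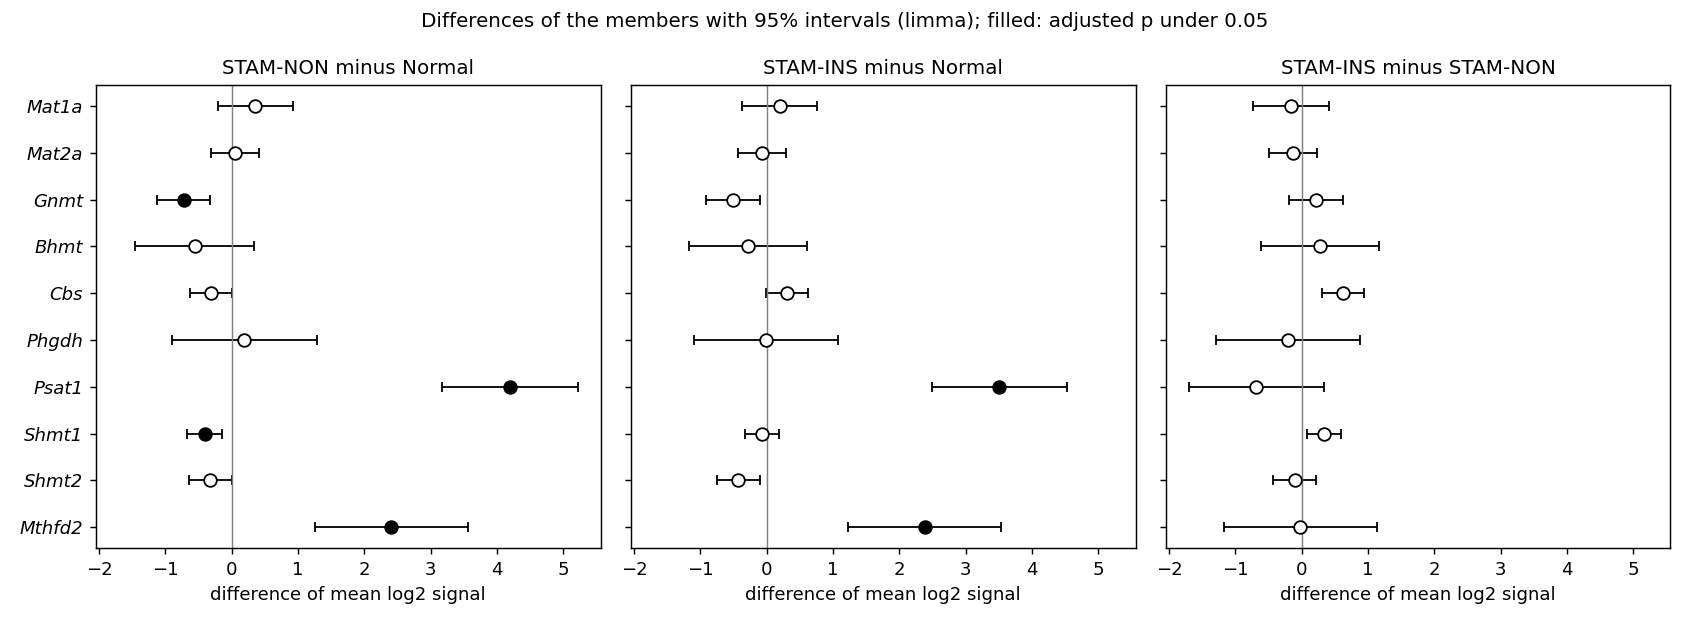
Difference of mean centred log2 signal (x axis) for each gene (y axis) in the 3 comparisons, with 95% intervals from limma. Filled points passed at an adjusted p under 0.05, and none did between the STAM groups.

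Insulin treatment was examined within 1 slide, though not within 1 slide row. Of the 10 genes, 0 passed in STAM-INS against STAM-NON, where 0.0913% of all tested probes passed by limma, 0.0114% higher and 0.0799% lower. At an unadjusted p under 0.05, 2 of the 10 passed by limma, where 8.78% of probes did, and the methods' t-test gave 2 before and 0 after Benjamini-Hochberg adjustment. They were Cbs and Shmt1, both higher in STAM-INS, and in both the 2 groups did not overlap, as in 12.2% of all tested probes. Cbs, the entry to cysteine synthesis, was 7.42, 7.87 and 7.65 in STAM-NON, 8.41, 8.20 and 8.20 in STAM-INS, and 7.89, 7.95 and 8.05 in Normal mice. All STAM-INS mice were thus above all others. The difference between the STAM groups was 0.62 (95% interval 0.31 to 0.94, adjusted p = 0.317 by limma). That of Shmt1 was 0.34 (0.08 to 0.60, adjusted p = 0.494). Psat1 differed by -0.69 (-1.71 to 0.34) and Mthfd2 by -0.02 (-1.18 to 1.13), so neither a fall nor a rise of about 2-fold in Mthfd2 was outside the interval.

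Other genes of the pathway, 45 tested of 47 listed, gave 8 calls in each comparison with Normal (17.8%), near the 16.1% of all tested probes for STAM-NON and the 13.9% for STAM-INS, and 0 by limma between the STAM groups (7 at an unadjusted p under 0.05). In STAM-NON 2 were higher and 6 lower, with a median of -0.38 against -0.13 for all probes. In STAM-INS 1 was higher and 7 lower, with a median of -0.22 against -0.09. Shares this near that of all probes are no result about the list, and its genes are described singly. The higher genes were all of folate metabolism. Mthfd1l, the mitochondrial enzyme that releases formate, was 1.68, 1.06 and 0.99 in STAM-NON, -0.08, -0.03 and -0.29 in STAM-INS, and -0.19, -1.04 and -0.74 in Normal mice. STAM-NON stood above both other groups, by 1.90 over Normal (adjusted p = 0.00711 by limma), while the difference of -1.38 between STAM-INS and STAM-NON did not pass (adjusted p = 0.221).

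Mthfd2l, the paralogue of Mthfd2, was 0.62 higher in STAM-NON (adjusted p = 0.0366 by limma). Aldh1l2, the mitochondrial formyl-folate dehydrogenase, was by group means at least 1.1-fold higher in STAM-INS, being not well above background in Normal mice (measured difference 2.44, adjusted p = 0.02). Its probe was well above background on 1 of 3 STAM-NON and 3 of 3 STAM-INS arrays, so it was tested only through the group where it is called. Its cytosolic relative Aldh1l1 fell by 0.62 in STAM-NON (adjusted p = 0.0354), and cytosolic Mthfd1 differed by -0.38 and did not pass (0.0749). In STAM-INS the folate carriers Slc19a1 and Slc25a32 differed by -0.88 and -0.50, and both passed. The calls of the other lists were all lower. Choline and betaine breakdown had 3 of 5 genes called in each comparison, all lower, where 9.76% of all probes were called lower in STAM-NON and 8.73% in STAM-INS. These were Dmgdh, Sardh and Pipox, which demethylate dimethylglycine and sarcosine or oxidise sarcosine, with differences of -0.94, -0.86 and -0.69 in STAM-NON and -0.74, -0.85 and -0.60 in STAM-INS. Ahcy, which splits S-adenosylhomocysteine, fell by 1.04 in STAM-NON (adjusted p = 0.00932) and by 0.90 in STAM-INS (0.0101), and its relative Ahcyl1 fell by 0.42 in STAM-NON. No gene of the transsulfuration or serine and glycine lists passed. Spike-in centring moves the median of all probes to 0.16 in STAM-NON and 0.07 in STAM-INS. Under it the pathway calls were 3 higher and 1 lower in STAM-NON, and 1 higher and 0 lower in STAM-INS. Of the 3 choline and betaine calls, at most 1 thus remained in STAM-NON and none in STAM-INS. With slide row as a block, none remained in STAM-NON.

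**Figure D3:**
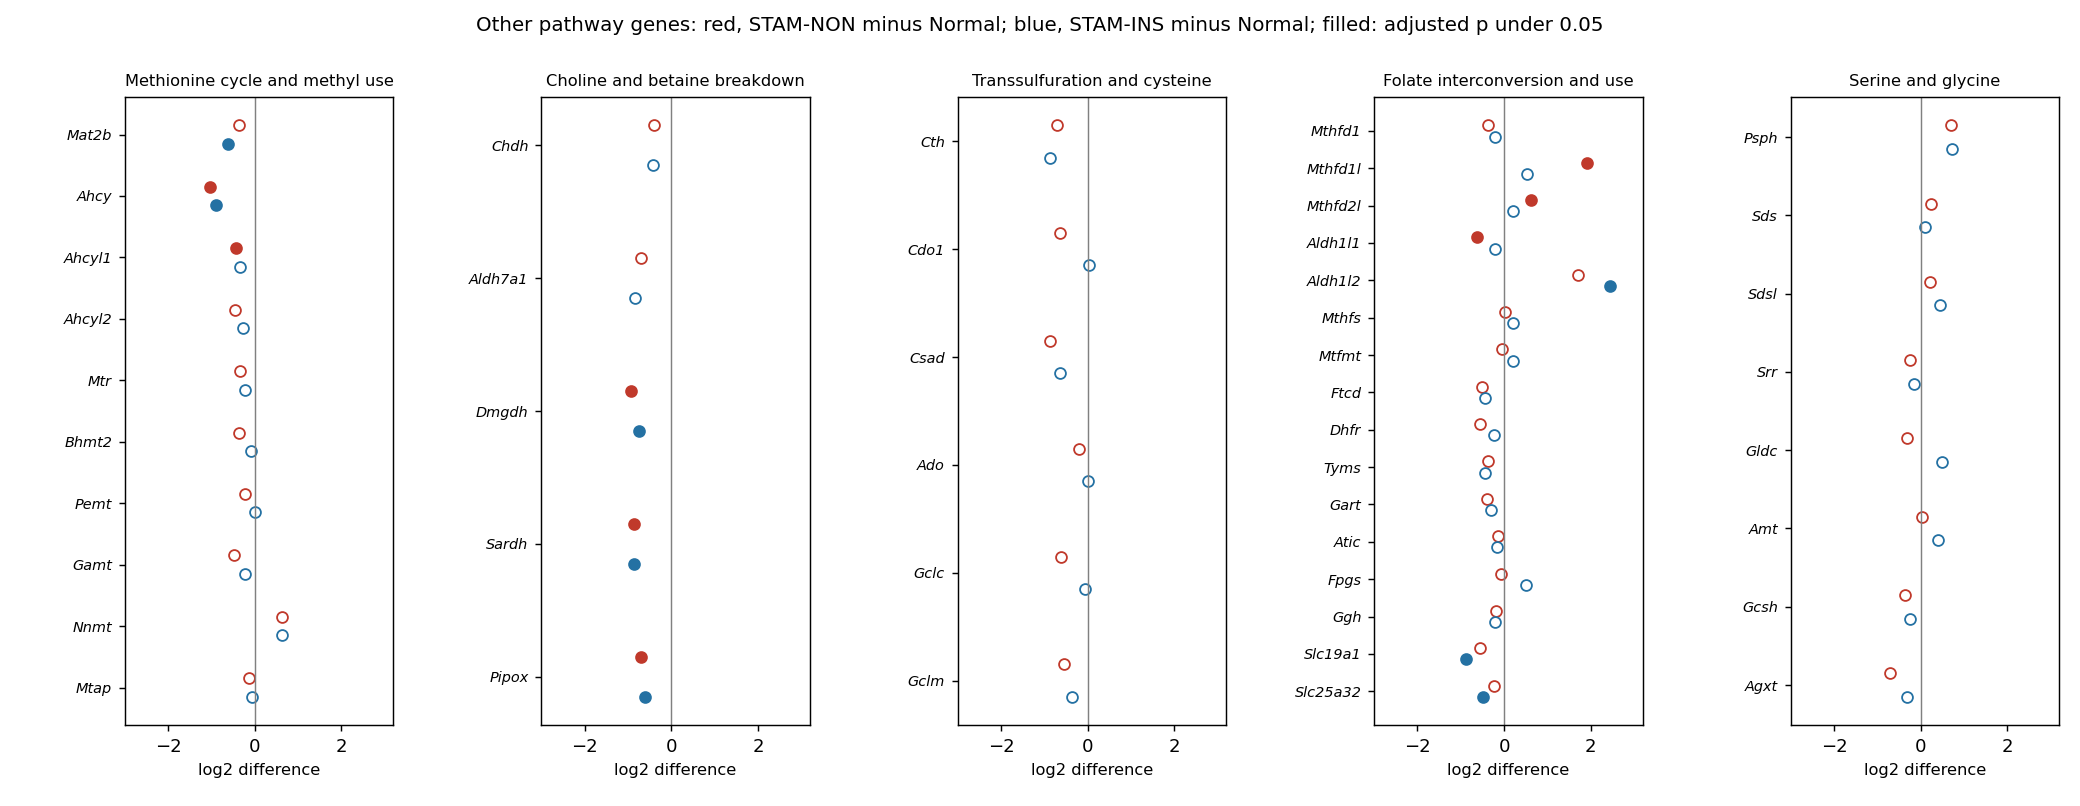
Difference of mean centred log2 signal from Normal (x axis) for 45 other pathway genes (y axis) in 5 lists, STAM-NON in red and STAM-INS in blue, filled where the adjusted p was under 0.05. The 3 filled points of choline and betaine breakdown lie left of 0 in both colours, and the filled points right of 0 are all in the folate list.

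Of ATF4 and its known targets outside the pathway, 3 of 10 tested genes passed in STAM-NON and 2 of 10 in STAM-INS, all higher, where 6.3% and 5.16% of all tested probes were called higher. Asns, asparagine synthetase, was 1.58, 1.74 and 2.15 in STAM-NON, 2.95, 1.35 and 1.98 in STAM-INS, and -0.81, -0.63 and -0.70 in Normal mice, a difference of 2.54 and 2.81 (adjusted p = 0.00818 and 0.00381 by limma). Every STAM mouse was above every Normal mouse. Atf5 was 1.19 and 1.56 higher, and Ddit3 1.47 higher in STAM-NON. Atf4 itself differed by -0.03 in STAM-NON (adjusted p = 0.853) and 0.38 in STAM-INS (0.0606), and Chac1 and Trib3 did not pass.

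The summed signals of some lists of cell markers also differed between the groups. On the linear scale relative to the percentile, the summed signal of 5 macrophage markers was 62.2 to 99.5 in Normal, 119 to 234 in STAM-NON and 101 to 261 in STAM-INS mice. That of 4 markers of dividing cells was 0.536 to 0.772, 0.907 to 4.29 and 1.44 to 6.83, and that of 3 cholangiocyte markers 0.393 to 0.971, 0.931 to 1.67 and 1.22 to 1.39. Summed hepatocyte markers were 4205 to 4508 in Normal, 2951 to 3854 in STAM-NON and 3555 to 3941 in STAM-INS mice, without overlap with Normal. Of all tested probes taken singly, 41.2% in STAM-NON and 44% in STAM-INS did not overlap with Normal. Stellate cell markers were 70.4 to 79.8, 83.2 to 135 and 64.1 to 80.1. Endothelial (30.8 to 35.8, 28.5 to 48.1 and 22.7 to 38.3) and lymphocyte sums (7.90 to 8.60, 7.31 to 8.48 and 7.42 to 9.58) overlapped. These sums are led by the brightest probes, and single markers passed limma in lists whose sums overlapped. Lyve1, a marker of sinusoidal endothelium, was 1.99, -0.19 and 2.20 in STAM-NON, -0.27, 1.28 and 0.13 in STAM-INS, and -1.17, -2.17 and -1.70 in Normal mice, and passed in STAM-NON (difference 3.01, adjusted p = 0.024 by limma), 1 of 5 endothelial markers. Ptprc, the pan-leukocyte gene in the lymphocyte list, was 1.09 higher in STAM-NON and 1.15 higher in STAM-INS (adjusted p = 0.0317 and 0.0284 by limma), 1 of 4. None of the 7 stellate markers passed limma in either comparison with Normal. At an unadjusted p under 0.05 by limma, 4 of them passed in STAM-NON and 0 in STAM-INS. At that threshold, 9395 and 8530 of 26277 tested probes passed. In STAM-NON and STAM-INS, 1 and 1 of 5 macrophage, 1 and 2 of 4 dividing-cell and 2 and 1 of 3 cholangiocyte markers passed, all higher. Of 8 hepatocyte markers, 1 and 2 passed, all lower. Among all tested probes, 6.3% and 5.16% were called higher, and 9.76% and 8.73% lower. In lists this short, 1 or 2 calls are no result about a cell type. The part of these cells in the differences of Psat1, Mthfd2, Gnmt and Shmt1 was not tested.

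**Figure D4:**
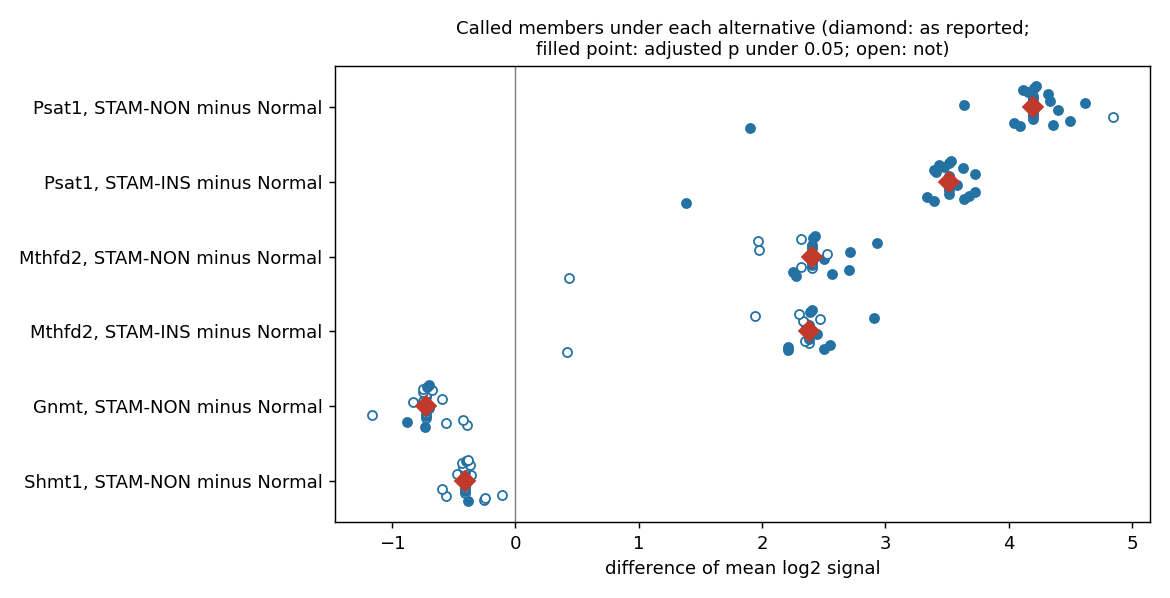
Difference of mean centred log2 signal (x axis) of the 6 calls (y axis) as reported (red diamonds) and under each alternative with adjusted p-values (points, filled where the adjusted p was under 0.05). Psat1 in STAM-INS passed in 24 of 24 and Shmt1 in 5 of 25, and no point crosses 0. The filter on all 9 arrays removes Psat1 and Mthfd2 and is not among their alternatives.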

How the data were processed

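The deposited files hold, per the file headers, spot intensity from Agilent Feature Extraction 11.5.1.1 (processed signal after background subtraction, median signals and flags), with no normalisation between arrays, on an array designed on mm9. Neither a normalisation nor a test for the arrays is named in the methods of the study. Probe accessions were matched to RefSeq (GRCm38.p6), which named 27656 of 55681 probes. The table gave names and promoters only.

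Control spots and outlier-flagged spots were left out, spots of a probe were averaged as log2, and the 75th percentile of log2 over all non-control spots was subtracted. Tests covered the 26277 probes with a share of 0.5 or more of their spots well above background on every array of some group. limma 3.58.1 in R 4.3.3 (no trend, not robust, two-sided) was fitted to all 9 arrays with 6 residual degrees of freedom and Benjamini-Hochberg adjustment, at a threshold of 0.05. Array number limits the precision.

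The genes and lists were chosen with earlier results of these data known. The definition of the percentile was also settled after results were seen. The first run took it over spots without flags. Then 12 combinations of flag handling, averaging and percentile were run, and the one kept was that whose number of calls matched the earlier results. They gave 3886 to 4226 calls for STAM-NON against Normal, and 3 or 4 of the 10 genes. The other definitions of the percentile are 2 alternatives added after the data were seen, beside 24 planned. The third promoter motif was also added after seeing the sequences.

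The normexp alternative used the median signal, because the mean signal planned for it was not in the files. Named from the pathway list were all genes that passed, plus Mat2b, Ahcy, Psph and Mthfd1, and regulator genes beyond that rule were named after their values were seen. One gene of the pathway list is not reported here and was left out of its counts. Replicate numbers did not pair arrays (correlation of deviations -0.288 to 0.149 over 9 pairs). In simulated data, 85% of 200 probes given a log2 change of 2 were recovered for STAM-NON against Normal, over 26277 probes. Of the probes called there, 6.59% were unchanged ones. Smaller changes, such as those of Gnmt and Shmt1, and effects of slide or row were not simulated. Noise was drawn independently for each probe, and 200 probes were changed, where 4220 were called in the data. The shares recovered and falsely called therefore do not carry over to the real comparison.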

Additional observations from a re-analysis of the deposited data

How the results depend on the processing

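Of the 6 calls, Psat1 in STAM-INS passed in 24 of 24 alternatives with adjusted p-values, Psat1 in STAM-NON in 22 of 24, Mthfd2 in 15 of 24 in each STAM group, Gnmt in 11 of 25 and Shmt1 in 5 of 25, and no call changed sign. The filter on all 9 arrays removes Psat1 and Mthfd2, so it is not among their 24 alternatives. Both genes entered the tests only through the STAM groups, in which they are high. Their counts of passes therefore cannot be read as independent of the filter on dim probes. The cause of the lost calls was not tested. The number of arrays, Normal signals of Psat1 and Mthfd2 that were not well above background, and a slide shared with the group limit all comparisons with Normal.

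Against Normal, 4 of the 10 genes passed in STAM-NON and 2 in STAM-INS. In STAM-NON the count was 2 with quantile normalisation (2966 probes called), the percentile over detected probes (3144), E1A spike-in centring (3037), the filter on all 9 arrays, which removes Psat1 and Mthfd2 by construction, and the fit of only the compared groups (2180). It was 1 without a filter on dim probes (250 probes called), 0 with slide row as a block (15) and 0 with the methods' t-test after Benjamini-Hochberg adjustment (30, against 7534 unadjusted, with 5 of the 10 genes). Leaving out 1 mouse gave 1 to 3. In STAM-INS the count was 1 without the filter (572), 0 with the filter on all 9 arrays, 1 with slide row as a block (2157), 4 with array weights (6538), and 5 and 1 with the t-test before and after adjustment (8810 and 2828). Leaving out 1 mouse gave 1 to 2. Between the STAM groups the t-test before adjustment gave 2 of the 10 genes and 6 pathway genes, and leaving out 1 mouse gave 0 of either.

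For the 8 pathway genes of STAM-NON the count was 4 with quantile normalisation, 4 with spike-in centring, 1 without the filter, 0 with slide row as a block, 5 with the fit of only the compared groups, and 17 and 0 with the t-test before and after adjustment, and leaving out 1 mouse gave 3 to 9. For the 8 of STAM-INS it was 5 with quantile normalisation, 1 with spike-in centring, 0 without the filter, 4 with slide row as a block and 16 with the unadjusted t-test, and leaving out 1 mouse gave 2 to 9. The numbers are not pairs, and with replicate number as a block (replicate block) 2 of the 10 genes and 4 pathway genes passed in STAM-NON, and 5 pathway genes in STAM-INS.

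Signs turned 32 times, all in uncalled differences. With slide row as a block these were Mat1a in STAM-NON (-0.0412) and between the STAM groups (0.105), Shmt2 in STAM-NON (0.0366), Mthfd2 between the STAM groups (0.0379), and Mat2a (0.0266) and Phgdh (0.141) in STAM-INS. Mat2a in STAM-NON turned with median centring (-0.101) and the median over probes (-0.0458), and Phgdh there with normexp (-0.0777). In STAM-INS, Mat2a, Phgdh and Shmt1 turned with the percentile over detected probes (0.0488, 0.11 and 0.0508) and spike-in centring (0.0905, 0.151 and 0.0925), Mat2a and Shmt1 with quantile normalisation (0.0911 and 0.0385), and Phgdh with array weights (0.194) and the percentile over probes (0.00914). Leaving out 1 mouse gave -0.0277 to 0.13 for Mat2a and -0.24 to 0.65 for Phgdh in STAM-NON, -0.22 to 0.0266 and -0.33 to 0.45 in STAM-INS, and between the STAM groups -0.37 to 0.12 for Mat1a, -0.14 to 0.57 for Bhmt, -0.56 to 0.23 for Phgdh, -0.24 to 0.0128 for Shmt2 and -0.33 to 0.41 for Mthfd2.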
